A study of Rattus norvegicus with 16 samples.

Results

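The transcription factors that set and hold the microglial programme were followed by mRNA level in microglia sorted from rat brain: Sall1, Spi1, Irf8, Maf, Mef2a, Mef2c, Runx1, Cebpa and Cebpb. The 9 genes were chosen by symbol from general knowledge of macrophage biology, with earlier results of these data known. Shares of members or listed genes set beside those of all genes are therefore descriptions only. A row among the 21842 symbols of the count matrix was found for 8 of the 9. No row carried the symbol Cebpa, so it was not analysed here. Each of the other 8 stood on 1 Ensembl gene ID, and all 8 were among the 13608 genes tested. Libraries came from male Wistar (Hsd/Cpb:WU) rats in 4 groups of 4: irradiated with X-rays at 14 Gy and injected with lipopolysaccharide (LPS, a bacterial endotoxin sensed by Toll-like receptors), sham-irradiated and given LPS, irradiated and given phosphate-buffered saline (PBS, the vehicle), and sham-irradiated and given PBS. They are called irradiated LPS, sham LPS, irradiated PBS and sham PBS rats here. In every group the intraperitoneal injection came 6 weeks after the (sham) irradiation, and living cells with high CD11b and intermediate CD45 were sorted from whole brain after mechanical dissociation in the cold. No source used here gives the age of the rats, the amount of LPS or the time between injection and sorting. The labels name no animals, so p-values measure the spread between these libraries. A library is named by its group and the number in its title.

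Microglia are the resident macrophages of the brain, and the factors that write their identity act in layers. PU.1, the product of Spi1, is the ETS-family pioneer that opens macrophage enhancers in all tissues, and it works with IRF8, with C/EBP factors (Cebpa, Cebpb) and with RUNX1. On top of that layer, MEF2 factors (Mef2a, Mef2c), MAF and above all the zinc finger protein SALL1 mark enhancers that separate microglia from other tissue macrophages. In mice, loss of Sall1 from microglia lets genes of inflammatory and other macrophages appear.

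Total counts per library ranged from 14309458 to 62745496. Levels are given as CPM, the counts of a gene relative to the library total after scaling with TMM factors, and changes as log2 fold changes ± SE over 4 libraries a group, where 1 unit is a doubling. The words rose and fell are kept for genes to which the edgeR quasi-likelihood test gave a Benjamini-Hochberg adjusted p under 0.05 over all genes tested. CPM values are not divided by transcript length, so levels are compared between groups and not between genes. The sorted cells carried microglial markers at high level: Tmem119 averaged 1279 ± 136 CPM in irradiated LPS, 5715 ± 1355 in sham LPS, 1973 ± 467 in irradiated PBS and 5019 ± 989 in sham PBS rats (SD, n = 4 each). Of the other microglia markers, Siglech averaged at most 0.135 CPM in any group and Olfml3 at most 1.46. Summed CPM of the microglia markers, of which 9 of 10 had a row, was 14489 to 18787 in irradiated LPS, 35671 to 39677 in sham LPS, 20460 to 26019 in irradiated PBS and 45463 to 49317 in sham PBS rats. In bulk libraries, fewer cells of a type and less RNA per cell cannot be told apart.

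Runx1 and Cebpb rose and Maf fell with LPS whether or not the rats had been irradiated, Sall1 fell under both treatments, Mef2c fell with irradiation, and Spi1 and Irf8 passed the test in none of these comparisons. Among irradiated rats, LPS raised 2 members (Runx1, Cebpb) and lowered 3 (Sall1, Maf, Mef2c), 5 of 8 against 31.4% of all genes tested called in either direction (17% higher, 14.5% lower). The groups did not overlap for these 5, as for 32.3% of all genes. Among sham rats, LPS raised 3 (Mef2a, Runx1, Cebpb) and lowered 2 (Sall1, Maf), 5 of 8 against 29.6% of all genes (15.2% higher, 14.5% lower), and again the groups did not overlap for the 5 (29.9% of all genes). Irradiation lowered 4 members among LPS rats (Sall1, Mef2a, Mef2c, Maf) and raised 0, 4 of 8 against 27.7% of all genes (12.6% lower, 15.1% higher), without overlap for the 4 (26.7% of all genes). Among PBS rats it lowered 2 (Sall1, Mef2c) and raised 0, 2 of 8 against 21.4% (9.91% lower, 11.5% higher), without overlap for the 2 (26.7% of all genes), which is a share near the background. The LPS response differed between irradiated and sham rats for 1 member, Mef2a, against 1.26% of all genes. The 4 pairwise comparisons share groups with each other, so their counts are not independent.

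**Figure D1:**
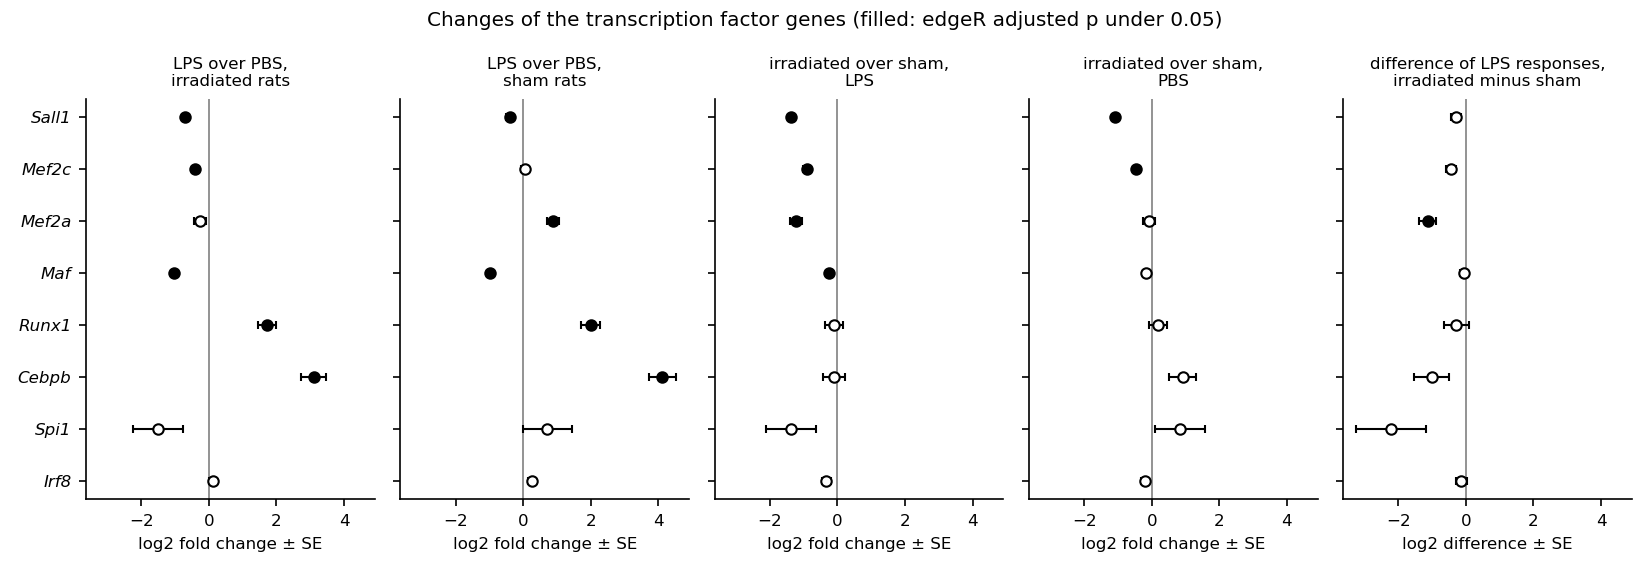
Log2 fold change with its SE for the 8 members in 4 comparisons, and the difference between the LPS responses in the last panel (n = 4 libraries a group); filled points have an edgeR adjusted p under 0.05. Runx1 and Cebpb lie to the right of 0 with LPS in both kinds of rat, Maf to the left, and Sall1 lies left of 0 in all 4 pairwise panels.

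Sall1 (ENSRNOG00000013907) encodes the zinc finger repressor that sets microglia apart from other macrophages, and it was the member with a difference between every pair of neighbouring groups. Its level was 88.9, 121, 117 and 109 CPM in irradiated LPS rats and 270.4, 336, 261 and 267 CPM in sham LPS rats. It was 162, 181, 178 and 186 CPM in irradiated PBS rats and 361, 389, 375 and 369.7 CPM in sham PBS rats. The 4 groups did not overlap: every irradiated LPS library lay below every irradiated PBS library, these below every sham LPS library, and these below every sham PBS library. Irradiation lowered Sall1 2.60-fold among LPS rats (log2 -1.38 ± 0.10, edgeR adjusted p = 1.88e-08) and 2.11-fold among PBS rats. LPS lowered it 1.62-fold in irradiated and 1.32-fold in sham rats. The level with LPS alone was 0.68 ± 0.10 log2 units above that with irradiation alone (edgeR adjusted p = 2.83e-05). With both treatments it stood 3.42-fold below sham PBS rats (log2 -1.78 ± 0.10, edgeR adjusted p = 2.24e-10). The LPS response was more negative in irradiated rats by 0.30 ± 0.14 log2 units, and that difference did not pass (edgeR adjusted p = 0.404, interval of ± 2 SE -0.57 to -0.02). Sham LPS 2, the library with 336 CPM, stood apart from the other 3 sham LPS libraries. The microglia marker sums given above move with Sall1 across the groups, and their part in its fall was not tested.

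Mef2c (ENSRNOG00000033134), a MADS-box factor that restrains the microglial response to immune signals in mice, fell after irradiation and fell again where LPS followed. It had 311, 402, 392 and 353 CPM in irradiated LPS rats and 699.5, 678, 632 and 737 CPM in sham LPS rats. Irradiated PBS rats had 421, 534, 516 and 468 CPM and sham PBS rats 617, 794, 612 and 643 CPM. Both irradiated groups lay wholly below both sham groups, whereas the sham LPS and sham PBS libraries overlapped. The fall with irradiation was 0.91 ± 0.10 log2 units among LPS rats (edgeR adjusted p = 2.88e-06) and 0.46 ± 0.10 among PBS rats (edgeR adjusted p = 0.00333). LPS lowered Mef2c in irradiated rats (log2 -0.41 ± 0.10, edgeR adjusted p = 0.00504) and gave 0.04 ± 0.10 in sham rats (edgeR adjusted p = 0.798). The difference between these responses, -0.45 ± 0.15, did not pass over all genes (edgeR adjusted p = 0.17), so a response of irradiated rats alone is not shown. Endothelial markers, of which 6 of 9 had a row, also summed lower in irradiated rats: 286 to 372 CPM in irradiated LPS against 427 to 453 in sham LPS, and 203 to 243 in irradiated PBS against 418 to 506 in sham PBS rats. The lower sum came from Tek, Pecam1 and Cdh5, and among PBS rats also from Slc2a1 (47.1 CPM in irradiated against 77.6 in sham rats). Single markers went both ways: irradiation raised 3 of the 6 and lowered 3 among LPS rats, and raised 1 and lowered 4 among PBS rats. Flt1 averaged 11.7 CPM in irradiated LPS against 2.45 in sham LPS rats, and Tek 48.3 against 122 CPM. No marker of that list was at 0 in a whole group, and its part in the fall of Mef2c was not tested.

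Mef2a (ENSRNOG00000047756), the paralog of Mef2c that binds the same DNA element, was the member whose LPS response differed between irradiated and sham rats. Its level was 198, 181, 239.5 and 153 CPM in irradiated LPS rats and 373, 382, 449 and 592 CPM in sham LPS rats. It was 194, 210.5, 281 and 239 CPM in irradiated PBS rats and 173, 259.7, 259 and 289 CPM in sham PBS rats. All 4 sham LPS libraries lay above the 12 others, and the other 3 groups overlapped. LPS raised Mef2a in sham rats by 0.88 ± 0.18 log2 units (1.83-fold, edgeR adjusted p = 0.00146) and gave -0.26 ± 0.18 in irradiated rats (edgeR adjusted p = 0.302). The responses differed by -1.14 ± 0.25 (edgeR adjusted p = 0.0369). Among LPS rats, irradiation lowered Mef2a 2.33-fold (log2 -1.22 ± 0.18, edgeR adjusted p = 7.45e-05), while among PBS rats the value was -0.08 ± 0.18 (edgeR adjusted p = 0.796) and turned positive with library totals in place of TMM factors (0.07). The call for the difference in response lay near the threshold: leaving out 1 library at a time kept it in 5 of 16 cases (sham LPS 1, sham LPS 2, sham PBS 4, irradiated LPS 3 or irradiated PBS 1 left out), with values between -1.26 and -0.97 and an adjusted p of at most 0.0851. Within a library, the log2 ratio of Mef2a to Mef2c CPM was -1.21 to -0.65 in irradiated LPS, -0.91 to -0.32 in sham LPS, -1.34 to -0.88 in irradiated PBS and -1.84 to -1.16 in sham PBS rats. These ratios do not depend on the scaling between libraries, and the sham LPS range lay above the sham PBS range.

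Promoter windows of RefSeq on the rat build GRCr8, 250 bases before to 50 after an annotated start, were held for 6 members: Irf8, Maf, Mef2a, Runx1, Cebpa and Cebpb. They are shown for the 3 members that LPS raised in sham rats. Capitals mark exact matches on either strand to motifs of the factors studied here: the PU.1 core GAGGAAG, the RUNX core TGTGGT, the C/EBP site TTGCNNAA, the MEF2 site CTANNNNTAG and the ETS-IRF composite GGAANNGAAA.
Mef2a promoter, chr1:130392113-130392412, minus strand: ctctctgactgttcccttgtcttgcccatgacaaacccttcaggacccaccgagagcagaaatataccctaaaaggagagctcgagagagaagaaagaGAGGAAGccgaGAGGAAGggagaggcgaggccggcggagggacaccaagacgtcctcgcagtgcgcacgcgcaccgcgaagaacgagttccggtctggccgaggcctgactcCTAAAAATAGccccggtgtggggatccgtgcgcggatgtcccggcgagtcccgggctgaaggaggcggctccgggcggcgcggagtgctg
Runx1 promoter, chr11:45421276-45421575, minus strand: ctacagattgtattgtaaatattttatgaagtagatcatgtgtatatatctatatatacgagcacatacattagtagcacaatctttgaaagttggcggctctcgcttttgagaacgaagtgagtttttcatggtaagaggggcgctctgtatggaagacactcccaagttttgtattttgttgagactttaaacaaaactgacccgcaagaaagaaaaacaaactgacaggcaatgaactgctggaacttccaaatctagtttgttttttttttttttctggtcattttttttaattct
Cebpb promoter, chr3:176816755-176817054, plus strand: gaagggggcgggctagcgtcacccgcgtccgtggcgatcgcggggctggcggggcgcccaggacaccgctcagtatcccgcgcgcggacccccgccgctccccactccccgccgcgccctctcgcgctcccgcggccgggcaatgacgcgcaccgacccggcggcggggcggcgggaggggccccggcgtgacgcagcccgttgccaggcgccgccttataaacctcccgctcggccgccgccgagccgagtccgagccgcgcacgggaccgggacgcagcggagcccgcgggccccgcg
The Mef2a window held the PU.1 core at 2 places, starting 152 and 141 bases before the start, and a MEF2 site (CTAAAAATAG) starting 40 bases before it, and the matches did not overlap. The other 5 windows held none of the 5 motifs. Of 33469 promoter windows, 12.4% held the PU.1 core, 17.3% the RUNX core, 10.6% the C/EBP site, 3.84% the MEF2 site and 2.94% the composite. The windows of Runx1 and Cebpb differed in base composition, with 34.3% and 81% G and C against 63% in Mef2a. A match describes letters and is not a measured binding site.

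Maf (ENSRNOG00000012428), a bZIP factor of mature tissue macrophages, fell with LPS both in irradiated and in sham rats. It had 43.8, 45.3, 49.7 and 41.0 CPM in irradiated LPS rats against 93.0, 91.7, 105 and 81.1 CPM in irradiated PBS rats. It had 52.0, 53.6, 52.3 and 54.7 CPM in sham LPS rats against 107, 102, 106 and 105 CPM in sham PBS rats. Neither LPS group overlapped its PBS group, and the SD within the sham groups was 1.24 CPM with LPS and 2.35 CPM with PBS. The change with LPS was -1.04 ± 0.09 in irradiated rats (edgeR adjusted p = 6.21e-08) and -0.98 ± 0.09 in sham rats (edgeR adjusted p = 1.7e-07). Their difference was -0.06 ± 0.12 (edgeR adjusted p = 0.916, interval of ± 2 SE -0.30 to 0.18). Irradiation lowered Maf slightly among LPS rats (log2 -0.24 ± 0.08, edgeR adjusted p = 0.0413) and the value among PBS rats was -0.18 ± 0.08 (edgeR adjusted p = 0.144). The call among LPS rats was lost with library totals (log2 -0.17, edgeR adjusted p = 0.118) and in 7 of 8 fits that left out 1 library, the exception being irradiated LPS 3.

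Runx1 (ENSRNOG00000001704), the runt-domain factor of blood cell and microglial development, rose with LPS. It had 182, 278, 102 and 111 CPM in irradiated LPS rats against 63.6, 47.7, 51.6 and 41.9 CPM in irradiated PBS rats. Sham LPS rats had 136, 165, 225 and 198 CPM and sham PBS rats 42.2, 40.4, 53.5 and 45.1 CPM. Every LPS library exceeded every PBS library. The rise was 3.29-fold in irradiated rats (log2 1.72 ± 0.27, edgeR adjusted p = 0.000168) and 4.00-fold in sham rats (log2 2.00 ± 0.27, edgeR adjusted p = 6.03e-05). Irradiation gave -0.11 ± 0.26 among LPS rats (edgeR adjusted p = 0.815), a sign that turned when irradiated LPS 3, irradiated LPS 4 or sham LPS 3 was left out, and 0.17 ± 0.27 among PBS rats (edgeR adjusted p = 0.7). Irradiated LPS rats varied most, with a coefficient of variation of 48.3% against 21.3% in sham LPS, 17.9% in irradiated PBS and 12.8% in sham PBS rats. Markers of T and NK cells, which also express RUNX factors, had a row for 8 of 10 genes. They summed to 308 to 690.5 CPM in irradiated LPS, 14.0 to 129 in sham LPS, 45.8 to 99.4 in irradiated PBS and 5.93 to 15.9 in sham PBS rats. Within the irradiated LPS group the library with the highest Runx1 had the lowest sum of these markers (308 CPM). Within the sham LPS group the sums were 14.0, 49.9, 129 and 114 CPM by library number, ranked as Runx1 was. None of the markers was at 0 in a whole group. The sum in irradiated LPS rats rested mostly on Prf1 (mean 374.5 CPM), while Cd3d, Cd3e and Cd3g averaged 1.29, 3.49 and 1.66 CPM there. Of the 8 markers tested, LPS raised 3 and lowered 0 in irradiated rats, and raised 2 and lowered 0 in sham rats. The part of T and NK cells in the Runx1 values was not tested.

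Cebpb (ENSRNOG00000057347), the C/EBP factor of inflammatory activation, had few counts without LPS and showed the largest fold change of the members. Its level was 5.94, 5.47, 3.11 and 6.09 CPM in irradiated LPS rats against 0.56, 0.388, 0.721 and 0.693 CPM in irradiated PBS rats. Sham LPS rats had 6.74, 5.69, 3.44 and 6.34 CPM and sham PBS rats 0.182, 0.199, 0.46 and 0.396 CPM. LPS and PBS libraries did not overlap. These levels stand on 60 to 337 counts a library with LPS, 7 to 19 in irradiated PBS and 3 to 10 in sham PBS rats, so the fold changes are imprecise. LPS raised Cebpb by 3.10 ± 0.38 log2 units in irradiated rats (8.59-fold, edgeR adjusted p = 5.52e-06) and by 4.12 ± 0.40 in sham rats (17.4-fold, edgeR adjusted p = 6.99e-07). The difference between these responses, -1.02 ± 0.53, did not pass (edgeR adjusted p = 0.478). Irradiation alone gave 0.91 ± 0.41 (edgeR adjusted p = 0.129), and the irradiated PBS and sham PBS libraries overlapped. Monocyte markers, of which 9 of 10 had a row and none was at 0 in a whole group, summed to 615 to 1019 CPM in irradiated LPS, 295 to 410 in sham LPS, 368 to 477 in irradiated PBS and 150 to 226 in sham PBS rats. Of the 9 tested, LPS raised 6 and lowered 0 in irradiated rats, and raised 4 and lowered 1 in sham rats. By library number, the monocyte sums in irradiated LPS rats were 1000.5, 846, 615 and 1019 CPM, ranked as Cebpb was. In sham LPS rats they were 295, 410, 387 and 318 CPM, lowest in the library with the highest Cebpb. Plac8 averaged 243 CPM in sham LPS against 103 in sham PBS rats, whereas Ccr2 averaged 3.81 against 13.4 CPM. Neutrophil markers (10 of 10 with a row) summed to 364 to 2243 CPM in irradiated LPS, 243 to 294 in sham LPS, 229 to 302 in irradiated PBS and 322 to 403 in sham PBS rats. Mpo was at 0 in all 4 groups and Ltf in 3, and the value of 2243 CPM belonged to irradiated LPS 1, whose Cebpb level of 5.94 CPM lay within its group. Among sham rats the sum rested mostly on Csf3r (221 CPM with LPS against 328 with PBS), while S100a9 (24.2 against 12.3 CPM) and Cxcr2 (5.03 against 0.531 CPM) had higher means with LPS. Of the 8 neutrophil markers tested, LPS raised 7 and lowered 0 in irradiated rats, and raised 1 and lowered 1 in sham rats. The part of monocytes and neutrophils in the rise of Cebpb was not tested.

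**Figure D2:**
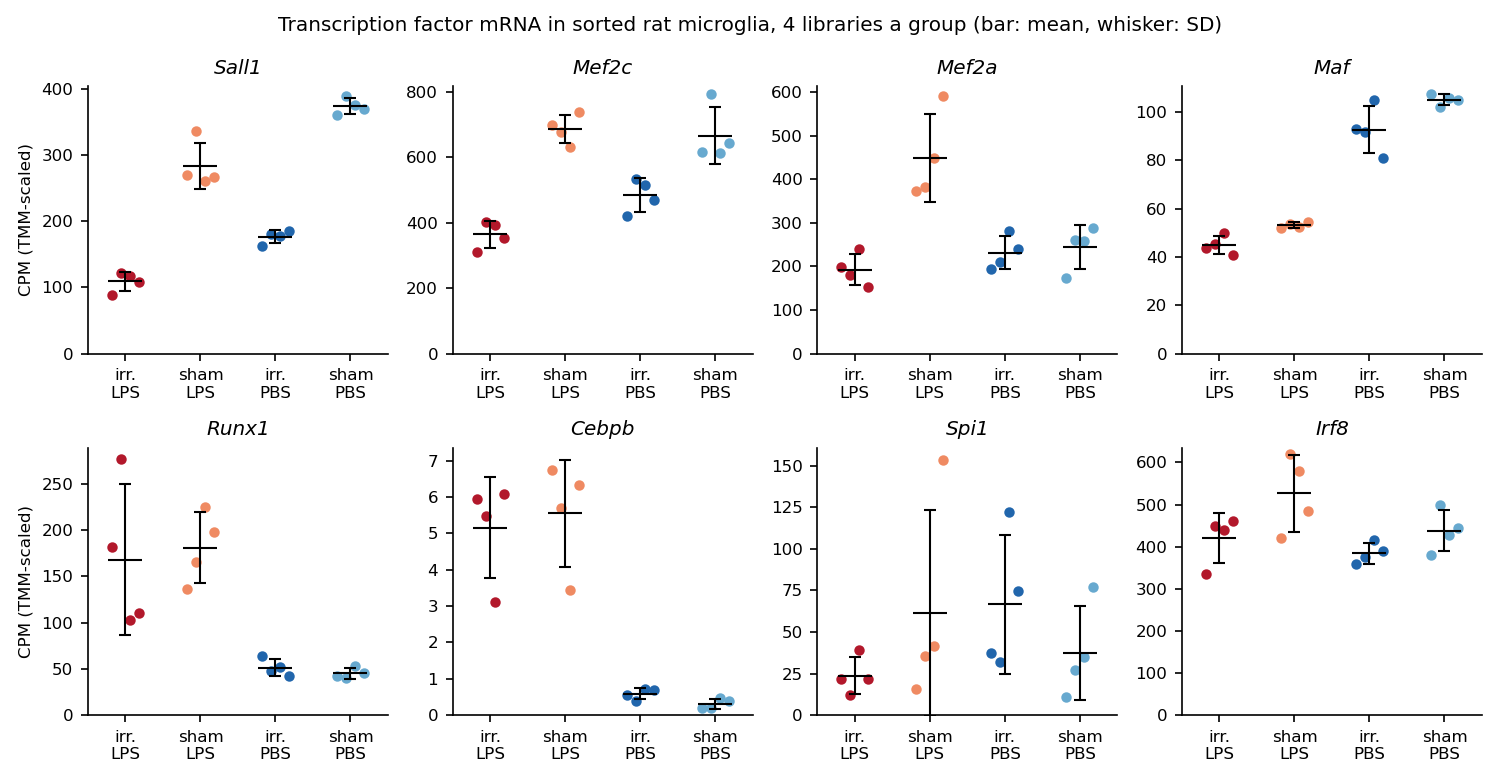
TMM-scaled CPM of the 8 members (linear axes from 0) in irradiated LPS, sham LPS, irradiated PBS and sham PBS rats, with 1 point per library, a bar for the mean and whiskers for the SD over 4 libraries (the whisker of Spi1 in sham LPS rats reaches below 0 and is not drawn there). Sall1 separates all 4 groups, Maf, Runx1 and Cebpb separate LPS from PBS, Mef2a stands out in sham LPS rats, and Spi1 overlaps everywhere.

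Spi1 (ENSRNOG00000012172), the PU.1 gene, passed the test in 0 of the 7 comparisons, and its libraries differed widely within each group. It had 21.9, 12.1, 39.1 and 21.7 CPM in irradiated LPS rats and 15.7, 35.2, 41.3 and 153 CPM in sham LPS rats. It had 37.4, 31.8, 122 and 74.9 CPM in irradiated PBS rats and 10.9, 27.1, 34.6 and 76.8 CPM in sham PBS rats. All 4 groups overlapped, and in sham LPS rats the highest library was 9.80 times the lowest. The coefficient of variation was 47.3% in irradiated LPS, 101% in sham LPS, 62.8% in irradiated PBS and 75.1% in sham PBS rats, whereas the median over tested genes lay between 16.9% and 20.3% in the 4 groups. Such a spread left wide intervals: LPS gave -1.50 ± 0.74 in irradiated rats (edgeR adjusted p = 0.15) and 0.71 ± 0.73 in sham rats (edgeR adjusted p = 0.512). The interval of ± 2 SE in sham rats ran from -0.75 to 2.18. Irradiation gave -1.38 ± 0.74 among LPS rats (edgeR adjusted p = 0.199) and 0.83 ± 0.73 among PBS rats (edgeR adjusted p = 0.476). Neither a change nor its absence is therefore shown for Spi1 by this fit, which treats the libraries as unpaired, and without sham LPS 4 the LPS value of sham rats turned to -0.285.

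The spread of Spi1 was shared with other genes. After each group's mean was taken off, its log2 CPM followed Ppp1ca, a protein phosphatase 1 catalytic subunit gene, with r = 0.984 over the 16 libraries, and Clptm1 and Emc10 with 0.969 each. Of 13607 other genes, 77 had an r above 0.9 with Spi1, whereas 20 did so with Mef2a and 0 with each of the other 6 members. Mef2a followed Spi1 within groups (r = 0.876, and 0.56 over the 16 libraries with group means kept), while Sall1 did not (r = -0.02). The amplitudes differed: Ppp1ca spanned 75.7 to 120 CPM in the sham LPS libraries, in which Spi1 spanned 15.7 to 153 CPM. These values are descriptions over libraries that share their groups and preparation, and no p is given for them.

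**Figure D3:**
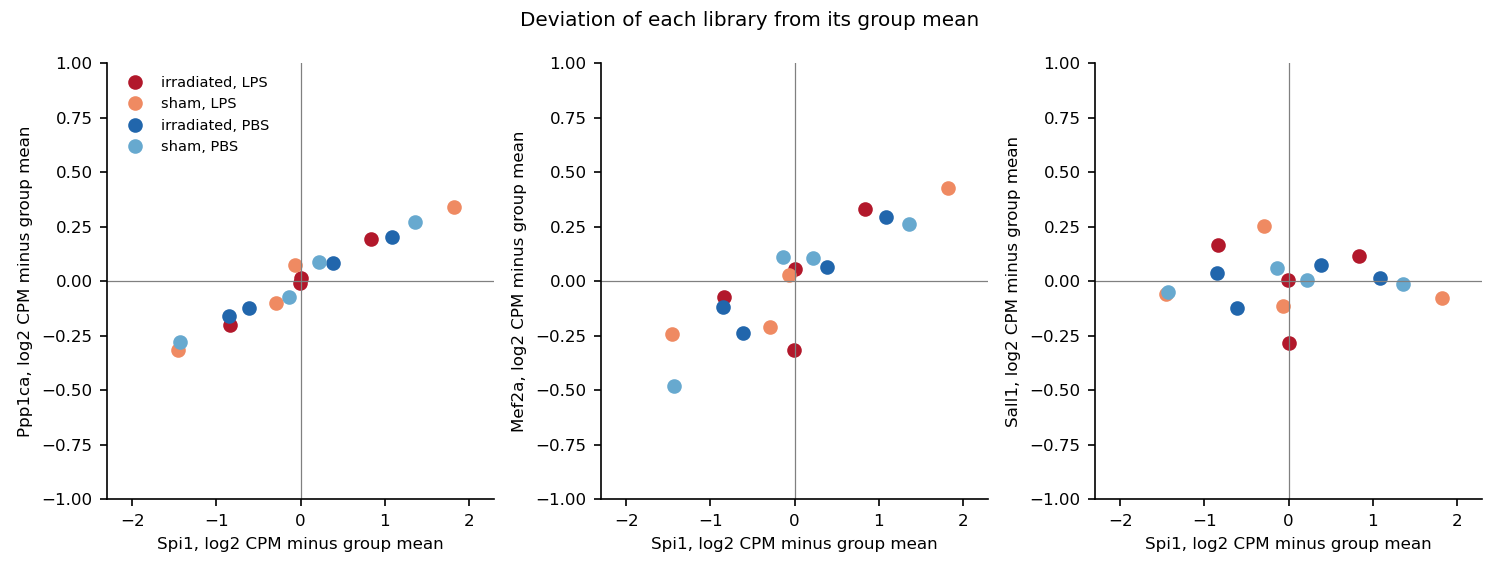
Deviation of log2 CPM from the group mean for Spi1 (horizontal axis) against Ppp1ca, Mef2a and Sall1 (vertical axes), with 1 point per library (16) coloured by group. Points for Ppp1ca lie along a line (r = 0.984), those for Mef2a more loosely (r = 0.876), and those for Sall1 show no slope (r = -0.02).

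Irf8 (ENSRNOG00000017869), the interferon regulatory factor that pairs with PU.1, passed the test in none of the comparisons of LPS with PBS or of irradiation with sham. It had 334, 449, 438 and 462 CPM in irradiated LPS rats and 420.0, 621, 581 and 485 CPM in sham LPS rats. Irradiated PBS rats had 359, 374, 417 and 389 CPM and sham PBS rats 381, 499, 428 and 445 CPM. LPS gave 0.13 ± 0.12 in irradiated rats (edgeR adjusted p = 0.47) and 0.27 ± 0.12 in sham rats (edgeR adjusted p = 0.113). Irradiation gave -0.32 ± 0.12 among LPS rats (edgeR adjusted p = 0.0565) and -0.19 ± 0.12 among PBS rats (edgeR adjusted p = 0.311), and each of these pairs of groups overlapped. In each of the 4 groups the library numbered 1 was the lowest. Without sham LPS 1, Irf8 passed with LPS in sham rats (log2 0.36, edgeR adjusted p = 0.0296) and with irradiation among LPS rats (log2 -0.42, edgeR adjusted p = 0.0146). Both also passed with every library kept and a replicate block in the fit (edgeR adjusted p = 0.031 and 0.00973). DESeq2 also called the fall with irradiation among LPS rats (log2 -0.33, adjusted p = 0.0352).

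The order of the group means differed by member. For Sall1 it ran from irradiated LPS (109 ± 14.5 CPM) through irradiated PBS (177 ± 10.2) and sham LPS (284 ± 35.0) to sham PBS rats (374 ± 11.8; SD, n = 4 each), with each step past the test. For Mef2c the lowest mean was also irradiated LPS (365 ± 41.6), followed by irradiated PBS (485 ± 50.8), and the upper neighbours sham LPS (687 ± 44.1) and sham PBS (667 ± 85.9) did not differ beyond their spread. Maf ran from irradiated LPS (44.9 ± 3.65) through sham LPS (53.1 ± 1.24) to irradiated PBS (92.7 ± 9.69) and sham PBS (105 ± 2.35), of which the last step did not pass. Mef2a had its highest mean in sham LPS rats (449 ± 101), and the neighbours irradiated LPS (193 ± 36.2), irradiated PBS (231 ± 38.0) and sham PBS (245 ± 50.2) did not differ beyond their spread. Runx1 and Cebpb shared an order, sham PBS, irradiated PBS, irradiated LPS and sham LPS from low to high, in which the step between the PBS and LPS groups passed. No step passed for Spi1 or Irf8.

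Treated rats at the 2 ends of the design were compared as well. Irradiation plus LPS against sham plus PBS changed 5 of 8 members, 2 higher and 3 lower, against 45.5% of all genes (23.9% higher, 21.5% lower). The groups did not overlap for these 5 (43.5% of all genes). Runx1 stood 3.71-fold higher (log2 1.89 ± 0.27, edgeR adjusted p = 3.63e-05) and Cebpb 16.2-fold higher (log2 4.02 ± 0.40, edgeR adjusted p = 2.23e-07), while Maf was 2.34-fold lower and Mef2c 1.83-fold lower beside the fall of Sall1. LPS alone against irradiation alone differed in 7 of 8 members, 6 higher and 1 lower, against 37.2% of all genes (18.8% higher, 18.4% lower), and the groups did not overlap for these 7 (35.2% of all genes). Sall1, Mef2a (log2 0.96 ± 0.18), Mef2c (0.50 ± 0.10), Irf8 (0.45 ± 0.12), Runx1 (1.82 ± 0.27) and Cebpb (3.21 ± 0.38) were higher in sham LPS than in irradiated PBS rats, and Maf was lower (-0.80 ± 0.09). The largest edgeR adjusted p among these 7 was 0.00693, for Irf8, whose call was lost with library totals (log2 0.26, edgeR adjusted p = 0.0768).

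Members resembled each other in pairs. Over the 16 libraries, log2 CPM of Sall1 followed Mef2c with r = 0.931 and Runx1 followed Cebpb with 0.917, while Maf ran against Cebpb (-0.953) and against Runx1 (-0.884). With group means taken off, r was 0.581 for Sall1 and Mef2c, 0.157 for Runx1 and Cebpb, -0.21 for Maf and Cebpb and 0.115 for Maf and Runx1. Sall1 and Irf8 had 0.699 with group means taken off and 0.427 with them kept. Outside the members, the genes most like Sall1 were Cx3cr1, the fractalkine receptor gene (r = 0.991), Lhfpl2 (0.99) and Slco2b1 (0.99). Those most like Cebpb were Stat3 (0.968), Sbno2 (0.967) and Gch1 (0.967), and those most like Maf were Tmem37 (0.979), Cyb561a3 (0.969) and Alox12 (0.967). Mef2c was most like Fam210b (0.961), Laptm5 (0.955) and Epb41l2 (0.955), Runx1 like Zdhhc5 (0.947), Kpna4 (0.944) and Tpm3 (0.943), and Mef2a like Smox (0.916), Pcgf3 (0.912) and Tm7sf3 (0.905). Irf8 had weaker matches, Slc39a6 (0.902), Zfp770 (0.9) and Fhod1 (0.847). All these r values are over 16 libraries in 4 groups and are given without a p.

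Relatives of the members in the same families were 27 genes, of which 23 were tested. With irradiation among LPS rats 5 rose and 5 fell (43.5% of those tested, against 27.7% of all genes), and among PBS rats 5 rose and 4 fell (39.1% against 21.4%). Runx3, the RUNX gene of T and NK cells among others, had 60.3, 49.0, 37.7 and 46.1 CPM in irradiated LPS and 1.76, 2.26, 4.41 and 6.01 CPM in sham LPS rats. In irradiated PBS rats it had 21.7, 21.6, 12.3 and 14.4 CPM, and in sham PBS rats 0.73, 2.09, 0 and 0.495 CPM. Irradiation raised it 13.3-fold among LPS rats (edgeR adjusted p = 0.000107) and, in the fitted value, 21.1-fold among PBS rats (edgeR adjusted p = 0.000103). Spic, an ETS gene of the PU.1 subfamily known from red pulp macrophages, had 85 to 253 counts in irradiated LPS against 0 to 7 in sham LPS rats (log2 4.59 ± 0.63, edgeR adjusted p = 2.24e-05), and 49 to 119 in irradiated PBS against 6 to 23 in sham PBS rats (log2 2.52 ± 0.53, edgeR adjusted p = 0.00216). Irf7, the interferon-induced IRF, rose 6.62-fold with irradiation among PBS rats (log2 2.73 ± 0.45, edgeR adjusted p = 0.000633). Border-associated macrophage markers, all 10 with a row, summed to 3124 to 4283 CPM in irradiated LPS, 471 to 1036 in sham LPS, 1265 to 1559 in irradiated PBS and 381 to 442 in sham PBS rats. None of them was at 0 in a whole group. The sum in irradiated LPS rats rested mostly on Clec10a (mean 2206 CPM). Irradiation raised 9 of the 10 and lowered 0, both among LPS and among PBS rats. In irradiated rats LPS raised 3 and lowered 2 of these markers, with 5 not called. The part of border-associated macrophages, and of the T and NK cells whose marker sums stand beside Runx1, in the rises of Runx3 and Spic was not tested.

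With LPS, 5 relatives rose and 2 fell in irradiated rats, 30.4% of those tested and near the 31.4% of all genes, and 9 rose and 3 fell in sham rats (52.2% against 29.6%). Irf1, an early interferon regulatory factor, rose 5.14-fold in irradiated (log2 2.36 ± 0.17, edgeR adjusted p = 3e-08) and 5.70-fold in sham rats (log2 2.51 ± 0.18, edgeR adjusted p = 1.89e-08), and Irf2 rose by 0.53 ± 0.09 in irradiated and 0.72 ± 0.09 in sham rats. Irf5, which drives inflammatory cytokine genes, fell by 0.99 ± 0.08 in irradiated (edgeR adjusted p = 8.97e-08) and by 0.93 ± 0.08 in sham rats (edgeR adjusted p = 2.6e-07), and irradiation alone lowered it by 0.40 ± 0.08 (edgeR adjusted p = 0.00171). Maff, a small MAF protein gene without an activation domain, rose by 5.29 ± 0.65 log2 units in irradiated and 4.04 ± 0.61 in sham rats, and its PBS libraries held 1 to 41 counts. For the difference between the LPS responses, 0 of the 23 relatives passed, where 1.26% of all genes did.

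**Figure D4:**
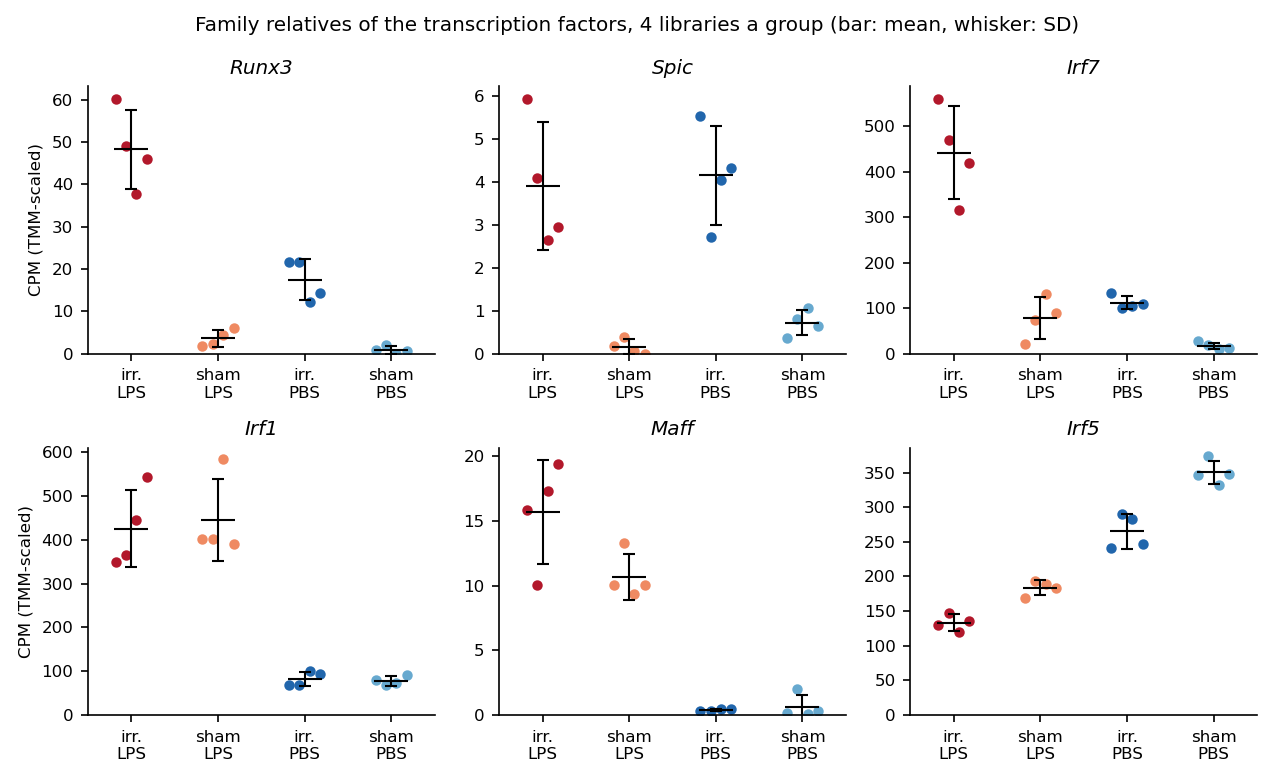
TMM-scaled CPM of 6 relatives of the members (linear axes from 0), with 1 point per library, a bar for the mean and whiskers for the SD over 4 libraries. Runx3 and Spic are high in both irradiated groups, Irf1 and Maff are high in both LPS groups, Irf7 is highest and Irf5 lowest in irradiated LPS rats.

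Other transcription factors of the macrophage lineage were 30 genes, of which 28 were tested. LPS raised 6 and lowered 5 in irradiated rats (39.3% of those tested, against 31.4% of all genes) and raised 12 and lowered 5 in sham rats (60.7% against 29.6%). Irradiation raised 8 and lowered 8 among LPS rats (57.1% against 27.7%) and raised 8 and lowered 4 among PBS rats (42.9% against 21.4%). Etv5, an ETS factor, averaged 66.0 ± 12.9 CPM in irradiated LPS, 131 ± 17.7 in sham LPS, 217 ± 26.0 in irradiated PBS and 316 ± 25.6 in sham PBS rats (SD, n = 4 each), falling in all 4 comparisons. Tfec, an MiT-family factor of macrophages, averaged 61.9 ± 10.4 CPM in irradiated LPS, 10.7 ± 3.42 in sham LPS, 10.2 ± 1.84 in irradiated PBS and 2.78 ± 1.66 in sham PBS rats. Irradiation raised it 5.77-fold among LPS rats (edgeR adjusted p = 8.74e-06) and 3.59-fold among PBS rats (edgeR adjusted p = 0.000512). Zeb2, known from mice to hold tissue macrophage identity, fell with LPS in sham rats (log2 -0.94 ± 0.09, edgeR adjusted p = 7.19e-07). Klf6 rose with LPS in irradiated (0.84 ± 0.09) and sham rats (0.95 ± 0.09). The LPS response differed for 3 of the 28 (10.7%, against 1.26% of all genes). They were Lyl1 (-0.96 ± 0.19), Mitf (0.95 ± 0.22) and Bhlhe40 (1.49 ± 0.35), with edgeR adjusted p of 0.015, 0.0371 and 0.0486.

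Genes known from mice to need Sall1, or PU.1 with IRF8 and C/EBP factors, were followed too, and 22 of 23 were tested. With irradiation, 11 rose and 9 fell among LPS rats, where 15.1% of all genes rose and 12.6% fell. Among PBS rats 7 rose and 10 fell, where 11.5% of all genes rose and 9.91% fell. Their median log2 change with irradiation was 0.18 among LPS rats, beside 0.01 over all genes tested, and 0.21 among PBS rats, beside -0.005. With LPS, 6 rose and 7 fell in irradiated rats (59.1% of those tested, against 31.4% of all genes), and 6 rose and 5 fell in sham rats (50% against 29.6%). The LPS response differed for 0 of the 22, where it did for 1.26% of all genes. Cx3cr1 averaged 4753 ± 805 CPM in irradiated LPS, 10973 ± 377 in sham LPS, 7604 ± 620 in irradiated PBS and 14180 ± 466 in sham PBS rats (SD, n = 4 each), the order of Sall1. Csf1r, the receptor gene that microglia need to survive, fell with irradiation by 0.80 ± 0.07 among PBS rats (edgeR adjusted p = 2.71e-07). Lyz2, Cybb and Csf2ra, genes of inflammatory and other macrophages, rose with irradiation, each with an edgeR adjusted p of at most 1.09e-07. Among LPS rats Lyz2 rose 6.35-fold, Cybb 10.3-fold and Csf2ra 2.77-fold. Among PBS rats Lyz2 rose 5.14-fold, Cybb 7.49-fold and Csf2ra 2.69-fold. LPS raised Il1b 20.2-fold in irradiated and 11.2-fold in sham rats, and it lowered Gpr34 3.33-fold in irradiated and 2.49-fold in sham rats (edgeR adjusted p of at most 1.65e-06). The border macrophage and monocyte marker sums given above are also higher in irradiated than in sham rats. Among sham rats both sums were higher with LPS than with PBS, but not through all of their genes. There LPS raised 3 and lowered 1 of the 10 border macrophage markers, with 6 not called. It raised 4 and lowered 1 of the 9 monocyte markers tested, with 4 not called. Lyz2 averaged 2985 ± 442 CPM in sham LPS and 3165 ± 629 in sham PBS rats, and Cybb 160 ± 9.20 CPM in sham LPS and 163 ± 44.3 in sham PBS rats. The part of these cells in the rises of Lyz2, Cybb and Il1b was not tested.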

How the data were processed

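RNA of sorted microglia was sequenced from 16 samples in 4 groups of 4. The authors deposited raw read counts per Ensembl gene. Per the submitters' processing notes, HTSeq 2.0.2 was among the tools, beside fastp 0.23.2 and FastQC 0.11.9, with mRatBN7.2 as the build. No source used here names the aligner, the annotation or the strand counted, so a member and an antisense or overlapping gene cannot be told apart. Counts of the members in the matrix by symbol and in the files of single samples differed in 0 cells. Rows with no symbol held 1.85% to 2.28% of a library's counts.

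All 30560 gene IDs entered edgeR 4.0.16 in R 4.3.3 (TMM factors, filterByExpr, robust quasi-likelihood fit, 1 coefficient per group, no replicate block). The procedure was tested on simulated data. Adjusted p values are Benjamini-Hochberg values over the 13608 genes kept, called under 0.05, and the SE was taken as log2 fold change divided by the square root of F. Log2 CPM used a prior count of 2. An interval is ± 2 SE.

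The members and all gene lists were chosen with earlier results of these data known. All members were named, and per list and comparison up to 4 called genes with the smallest p, apart from 1 relative that is counted but not reported here. The 3 genes with the highest Pearson r were named per member. Alternatives were DESeq2 1.42.0, library totals without TMM factors, no filter, counts summed by symbol, only the 2 groups compared, a replicate block, both irradiated libraries numbered 1 left out, and each library left out in turn. Promoter windows came from RefSeq (GRCr8).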

Additional observations from a re-analysis of the deposited data

Results flagged for a closer look

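Sall1 in sham LPS rats had 1 library apart from the rest: sham LPS 2 at 335.79 CPM, with a gap to its nearest neighbour of 0.871 of the group's range. This was 1 of 32 groups of a member examined, and chance alone marks about 1 group in 20. The library lies on the side of the sham PBS rats, which it did not reach.

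The LPS response differed between irradiated and sham rats by the interaction test, which 1.26% of all genes passed, for 4 of the genes named. For Mef2a the difference, irradiated minus sham, was -1.14 ± 0.25 (edgeR adjusted p = 0.0369). Lyl1, a helix-loop-helix factor of blood cell development, averaged 72.4 ± 6.57 CPM in irradiated LPS against 159 ± 2.37 in irradiated PBS rats, and 132 ± 18.3 in sham LPS against 148 ± 32.8 in sham PBS rats (difference -0.96 ± 0.19, edgeR adjusted p = 0.015). Mitf averaged 34.5 ± 3.20 CPM in irradiated LPS against 35.1 ± 3.78 in irradiated PBS rats, and 15.6 ± 3.81 in sham LPS against 30.7 ± 3.81 in sham PBS rats (difference 0.95 ± 0.22, edgeR adjusted p = 0.0371). Bhlhe40 averaged 75.8 ± 8.58 CPM in irradiated LPS against 66.1 ± 14.7 in irradiated PBS rats, and 29.9 ± 7.67 in sham LPS against 73.3 ± 28.4 in sham PBS rats (difference 1.49 ± 0.35, edgeR adjusted p = 0.0486). In Mitf and Bhlhe40 the sham LPS group was the low one, whereas in Mef2a it was the high one.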

How the results depend on the processing

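Of the members' fold changes, 370 of 383 under other alternatives and 478 of 512 with 1 library left out kept their direction and their side of the threshold. The difference between the LPS responses was least stable: 171 genes were called, against 427 with DESeq2, 98 without both irradiated libraries numbered 1, and 103 to 191 with 1 library left out (fewest without sham PBS 3; also 113 without sham PBS 1, 112 without irradiated PBS 3, 111 without irradiated PBS 4 and 109 without irradiated LPS 4). Its 1 member, Mef2a, gave 0 members without both irradiated libraries numbered 1 and 0 without the filter, and 0 to 1 with 1 library left out. The cause was not tested. With library totals in place of TMM factors the median log2 change of all genes was 0.151 for irradiation among PBS rats (-0.0046 with TMM), -0.139 for LPS in irradiated rats (-0.021) and -0.227 for LPS alone against irradiation alone (-0.035). The share of calls that were higher then became 76.3% (53.7% with TMM), 39.2% (54%) and 30% (50.5%), and 28% (48.5%) for the difference between the LPS responses, so fold changes near these shifts depend on scaling. They also moved the mean levels of Sall1 in irradiated PBS rats to 191.5 CPM, of Irf8 there to 416.5 CPM, and of Maf to 50.44 CPM in sham LPS and 102.3 CPM in sham PBS rats.

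Values that changed sign had not passed the test. Mef2a with irradiation among PBS rats became 0.06811 with library totals and 0.002235 without both irradiated libraries numbered 1, and -0.2213 to 0.004592 with 1 library left out. Irf8 with both treatments against sham PBS rats became 0.05403 without those libraries and -0.1211 to 0.0385 with 1 left out. With 1 library left out, Spi1 ran from -0.285 to 1.337 for LPS in sham rats and from -1.117 to 0.3529 for LPS alone against irradiation alone. In irradiated against sham rats given LPS, Runx1 ran from -0.4625 to 0.07095 and Cebpb from -0.2782 to 0.07235. Maf ran from -0.1194 to 0.00631 for the difference between the LPS responses. The fall of Maf with irradiation among LPS rats had an edgeR adjusted p between 0.0208 and 0.132 with 1 library left out, 0.12 without both irradiated libraries numbered 1, 0.0967 without the filter and 0.0963 with the 2 groups alone. Mef2a with both treatments against sham PBS rats passed without sham PBS 1 (log2 -0.48, edgeR adjusted p = 0.0285).

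Replicate numbers were not treated as pairs, because the labels do not say what they mark. Deviations correlated above 0.1 in 10 of 24 same-numbered pairs of libraries (range -0.0887 to 0.405). Sham LPS 2 gave values below 0 with irradiated LPS 2 (-0.057) and irradiated PBS 2 (-0.0887), and all other pairs lay above 0. In addition, 11 of 16 libraries correlated best with a library of their own number, although most libraries of the other groups carry another number. What same-numbered libraries share was not tested. With a replicate block, Irf8 was called with LPS in sham rats (log2 0.26, edgeR adjusted p = 0.031) and with irradiation among LPS rats (log2 -0.32, edgeR adjusted p = 0.00973), no other member's call changed, and 221 genes were called for the difference between the LPS responses. Between same-numbered libraries Spi1 was lower with LPS in 4 of 4 irradiated pairs and higher in 4 of 4 sham pairs, and with the block its LPS values were -1.34 in irradiated (edgeR adjusted p = 0.0667) and 0.61 in sham rats (edgeR adjusted p = 0.401), with a difference of -1.95 (edgeR adjusted p = 0.259). Cebpb is limited by depth, with 3 to 19 counts a library in PBS rats, and Spi1 by the spread between libraries.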

Other observations

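Several listed genes have values not given above. With irradiation among PBS rats, Pparg rose (log2 4.49 ± 1.01), as did Id3 (2.35 ± 0.50) and the orphan nuclear receptor gene Nr4a1 (1.95 ± 0.39), with edgeR adjusted p of 0.00353, 0.00239 and 0.00171. Tal1 fell with irradiation among LPS rats (log2 -1.39 ± 0.19, edgeR adjusted p = 1.9e-05). It was higher with LPS alone than with irradiation alone (1.89 ± 0.19), as was Bhlhe41 (1.44 ± 0.17). Ets2 rose with LPS in irradiated rats (1.32 ± 0.12) and Fli1 fell with LPS in sham rats (-0.88 ± 0.11). Among genes that need the members in mice, the LPS co-receptor gene Cd14 rose 21.6-fold with LPS in sham rats, Lcn2 rose 59.3-fold with LPS in irradiated rats, and Trem2 fell by 0.84 ± 0.09 with LPS in irradiated rats. Of the 8 neutrophil markers tested, 7 also rose with LPS in irradiated rats, and the part of neutrophils in the rise of Lcn2 was not tested.

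Cebpd, the C/EBP relative of Cebpb, was picked after its values were seen. It had 32.7, 7.28, 107 and 28.1 CPM in irradiated LPS, 15.2, 47.2, 92.5 and 155 CPM in sham LPS, 10.7, 10.3, 30.8 and 22.5 CPM in irradiated PBS and 0.365, 2.84, 4.92 and 7.77 CPM in sham PBS rats. In each group the highest and the lowest library were those with the highest and the lowest Spi1 level.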
